A study of Mus musculus with 18 samples.

Results

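Metallothioneins and zinc transporters were examined in splenic regulatory T cells (Tregs) with and without CHD8, a chromatin remodeler of the CHD family. The 8 genes are the metallothioneins Mt1, Mt2 and Mt3, the zinc-sensing transcription factor Mtf1, the zinc exporter gene Slc30a1, and the zinc importer genes Slc39a1, Slc39a2 and Slc39a10. They were chosen by measured RNA values of the same libraries, since Mt2 stood first among all genes tested in 1 of the Chd8-/- libraries. Their differences between genotypes are therefore given as a description, with no test. All 8 were among the 35865 genes listed once in the RNA table, and all 8 passed the filter of 1 TPM (the authors' unit, reads per length of exon as a share of the library) in 2 or more libraries, which left 15240 genes. Mt2 passed through the Chd8-/- libraries alone and Slc39a2 through the WT libraries alone, so these genes had to differ between the genotypes in order to pass.

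The RNA data comprise 2 WT and 2 Chd8-/- libraries of YFP+ Tregs from the spleen, sorted by FACS after CD4+ T cells had been isolated. The labels give the Chd8-/- genotype as CHD8Flox/FloxFoxp3YFP-Cre and the WT genotype as CHD8flox/floxFoxp3YFP-Cre/+, whereas the study's methods describe WT mice that carry Foxp3YFP-Cre and no floxed Chd8 allele. As labelled, the YFP+ cells of WT would carry both Cre and floxed Chd8. The Foxp3 locus on the X chromosome drives the Cre and marks the sorted cells with YFP, and the mice were sex-matched young littermates. The study reports fatal inflammation and enlarged spleens in Chd8-/- mice, so genotype and disease state cannot be told apart in these libraries. The labels list a Poly IC injection for every library, which the methods used here do not describe.

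The identity of the libraries was checked before the members were read. Chd8 stood at 14.9 and 11.4 TPM in the Chd8-/- libraries, against 24.7 and 27.6 TPM in the WT libraries, and whole-gene values do not separate floxed from intact exons. Foxp3, which defines Tregs, was at 202.8 to 232.1 TPM in all 4 libraries. The Chd8-/- libraries stood apart from WT by transcripts of other cells in opposite directions, replicate 2 higher and replicate 1 lower. The summed level of 6 erythroid genes was 1989.7 TPM in Chd8-/- replicate 2 and 8.7 TPM in Chd8-/- replicate 1. In WT that sum was 385.2 and 351.9 TPM. The summed level of 8 myeloid genes was 1487.2 TPM in Chd8-/- replicate 2, of which Lyz2 made up 1360.3 TPM. It was 33.2 TPM in Chd8-/- replicate 1 and 151.2 and 121.7 TPM in WT. The study describes separate mice of both sexes within each genotype. Xist was at 500.2 to 843.3 TPM and the Y-linked genes Ddx3y, Eif2s3y and Kdm5d were listed at 0 in all 4 libraries. These values conflict with that description, since no library showed male transcripts. An estimate from the step between neighbouring TPM values, which is what a single read is worth, put each library at about 9240000 to 13200000 reads on genes of known exon length. Intervals made from such read numbers cover counting error only.

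Metallothioneins are small cysteine-rich proteins that bind zinc, copper and cadmium and buffer the free zinc of the cell. When zinc rises, the zinc finger factor MTF1 binds metal response elements in promoters and raises transcription of Mt1, Mt2 and Slc30a1, whose product ZnT1 exports zinc across the plasma membrane. The ZIP proteins, encoded by the Slc39a genes, carry zinc into the cytosol, and the ZnT proteins, encoded by the Slc30a genes, carry it out of the cytosol into organelles or out of the cell. Glucocorticoids and inflammatory cytokines also raise Mt1 and Mt2 in many tissues.

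The metallothionein genes lie in a row on the plus strand of chromosome 8 in GRCm38, over 43124 bp from the start of Mt4 to the end of Mt1. Mt2 was at chr8:94172618-94173567, and a gap of 5315 bp separated its end from the start of Mt1 at chr8:94178883-94180327. Mt3 was at chr8:94152607-94154148, and 18469 bp separated it from Mt2. The coding sequences of Mt1, Mt2 and Mt3 are shown because the results turn on reads being assigned to the right copy. Each spans 3 exons of the RefSeq models and holds 20 cysteine codons, which are printed in capitals (Mt1 and Mt2, 186 nt and 61 codons each; Mt3, 207 nt and 68 codons).
Mt1: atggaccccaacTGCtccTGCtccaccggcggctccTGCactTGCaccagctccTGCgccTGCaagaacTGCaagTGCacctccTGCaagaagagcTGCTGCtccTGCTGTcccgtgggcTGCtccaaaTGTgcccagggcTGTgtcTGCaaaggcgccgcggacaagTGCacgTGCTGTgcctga
Mt2: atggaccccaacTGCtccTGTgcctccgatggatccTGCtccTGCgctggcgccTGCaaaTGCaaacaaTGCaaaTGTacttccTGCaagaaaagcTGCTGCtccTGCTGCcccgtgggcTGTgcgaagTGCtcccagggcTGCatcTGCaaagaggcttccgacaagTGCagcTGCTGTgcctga
Mt3: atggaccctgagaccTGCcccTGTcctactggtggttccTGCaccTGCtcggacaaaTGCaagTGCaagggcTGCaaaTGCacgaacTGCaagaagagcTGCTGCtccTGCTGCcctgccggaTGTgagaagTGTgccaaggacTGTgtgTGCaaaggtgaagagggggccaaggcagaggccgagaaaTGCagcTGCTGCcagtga
Mt1 and Mt2 were identical at 148 of 186 bases (79.6%), and their longest identical run was 20 nt. Mt3 shared 66.2% of aligned bases with Mt1 and 67.6% with Mt2.

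The promoters of Mt1, Mt2 and Slc30a1 are shown because they are the members that MTF1 is known to activate. Each window runs from 250 bases before to 50 bases after the start of a RefSeq transcript in GRCm38.p6, on the plus strand. For Mt1 and Slc30a1 that start lies downstream of the outermost start of the gene model, which is the position given for the gene. Capitals mark the core of the metal response element in its 2 forms, TGCACNC and TGCGCNC, on either strand.
Mt1, chr8:94178839-94179138: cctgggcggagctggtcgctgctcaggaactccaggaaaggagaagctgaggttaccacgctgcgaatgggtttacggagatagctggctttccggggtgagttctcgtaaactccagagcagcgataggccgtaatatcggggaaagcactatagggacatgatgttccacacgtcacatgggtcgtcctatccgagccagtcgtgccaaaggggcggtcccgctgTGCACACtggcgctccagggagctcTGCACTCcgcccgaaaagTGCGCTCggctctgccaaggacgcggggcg
Mt2, chr8:94172368-94172667: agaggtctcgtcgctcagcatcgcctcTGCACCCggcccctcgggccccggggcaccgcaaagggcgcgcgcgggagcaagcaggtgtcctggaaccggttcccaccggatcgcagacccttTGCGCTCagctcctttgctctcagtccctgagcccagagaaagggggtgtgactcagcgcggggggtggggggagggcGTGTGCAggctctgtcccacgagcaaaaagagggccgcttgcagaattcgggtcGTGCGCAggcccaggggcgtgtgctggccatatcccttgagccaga
Slc30a1, chr1:191906531-191906830: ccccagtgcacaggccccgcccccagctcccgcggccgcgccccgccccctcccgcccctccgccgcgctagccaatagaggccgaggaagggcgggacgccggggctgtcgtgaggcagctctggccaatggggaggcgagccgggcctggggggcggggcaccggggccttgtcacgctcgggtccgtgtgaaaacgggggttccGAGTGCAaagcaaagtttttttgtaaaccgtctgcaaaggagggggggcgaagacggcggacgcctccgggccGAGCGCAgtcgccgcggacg
The Mt2 window held 4 matches, the Mt1 window 3 and the Slc30a1 window 2. The Mt3 window held 1 match, and the windows of Mtf1, Slc39a1, Slc39a2 and Slc39a10 held 0. Of 32851 promoter windows of the same length, 25.7% held at least 1 match and 1.97% held 3 or more. No match overlapped another in the windows printed. These are matches of letters and were not measured as binding sites.

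Mt2, which with Mt1 is one of the widely expressed metallothioneins, was the member with the widest range. Its level was 5.9 TPM in Chd8-/- replicate 1, 315.1 TPM in Chd8-/- replicate 2, 0.4 TPM in WT replicate 1 and 0 in WT replicate 2. Each Chd8-/- library was higher than either WT library, but the value of Chd8-/- replicate 2 was far from that of its own replicate. On the log2(TPM + 1) scale the Chd8-/- mean was 5.55 ± 3.90 (SD, n = 2) and the WT mean was 0.24 ± 0.34 (SD, n = 2), a mean difference of 5.30. Chd8-/- replicate 1 lay 2.54 above the WT mean and ranked 126 among 15240 genes, whereas Chd8-/- replicate 2 lay 8.06 above it and ranked 1. The gene just behind in Chd8-/- replicate 2 was Mir7649 with 7.19, followed by the cell cycle inhibitor gene Cdkn1a with 6.92. By level rather than difference, Mt2 ranked 395 of 35865 genes in that library.

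The reads behind the Mt2 values were few outside Chd8-/- replicate 2. Its TPM corresponded to about 22 reads in Chd8-/- replicate 1, 924 reads in Chd8-/- replicate 2, 1 read in WT replicate 1 and 0 in WT replicate 2, where 3 reads would be 1.04 TPM. The 95% Poisson interval was 3.68 to 8.88 TPM in Chd8-/- replicate 1 and 295 to 336 TPM in Chd8-/- replicate 2.

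Mt1, the neighbour of Mt2 in the cluster, did not share its difference between the genotypes. Its level was 0.2 TPM in Chd8-/- replicate 1, 2.5 TPM in Chd8-/- replicate 2, 2.8 TPM in WT replicate 1 and 0.3 TPM in WT replicate 2, or about 1, 13, 13 and 1 reads. The genotypes overlapped, with 1 high and 1 low library in each. Within each genotype the libraries of Mt1 were in the same order as for Mt2, although Mt2 had at most about 1 read in WT. The mean log2 difference was -0.12, and it changed sign when Chd8-/- replicate 1 or WT replicate 1 was left out (0.66 in each case). The TPM of Mt2 was 29.5 times that of Mt1 in Chd8-/- replicate 1 and 126 times in Chd8-/- replicate 2. In WT replicate 1, by contrast, Mt1 was 7 times Mt2. The ratios of Chd8-/- replicate 1 and WT replicate 1 each divide by about 1 read, so their size is uncertain.

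Mt3, a metallothionein best known from neurons, was near the limit of detection throughout. It stood at 0.8 and 1.8 TPM in the Chd8-/- libraries, against 1.9 and 2.2 TPM in the WT libraries, with about 3, 5, 5 and 6 reads. Both Chd8-/- values lay below both WT values, but the counting intervals of all 4 libraries overlapped. The mean log2 difference was -0.44, and after quantile normalization the genotypes overlapped. Mt4, the epithelial metallothionein, is not a member. It was listed at 0.5 TPM in Chd8-/- replicate 2 and at 0 in the other 3 libraries. The genes that flank the cluster did not share the pattern of Mt2, as Bbs2 was at 4.3, 1.6, 1.2 and 8.0 TPM and Nup93 at 19.2, 8.4, 11.4 and 19.1 TPM in Chd8-/- replicates 1 and 2 and WT replicates 1 and 2.

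**Figure D1:**
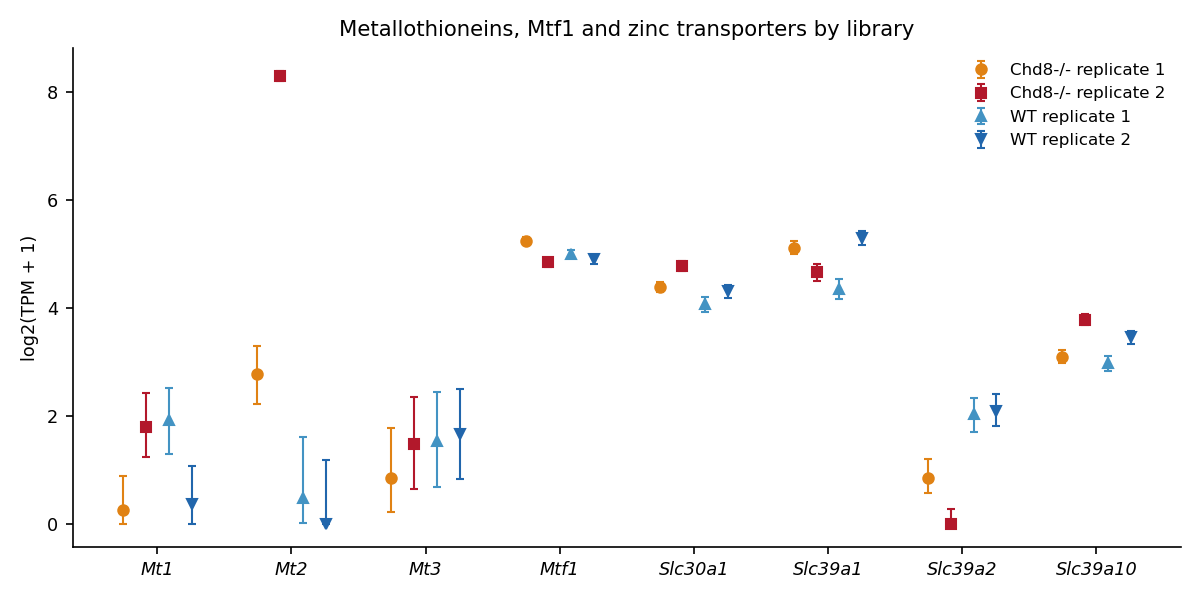
The y axis is log2(TPM + 1) and each point is 1 library, with 95% Poisson intervals for counting error as bars. Mt2 reaches 315.1 TPM in Chd8-/- replicate 2 alone, and Slc39a2 is lower in both Chd8-/- libraries than in both WT libraries. Mt1 has 1 high and 1 low library in each genotype.

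Mtf1, which encodes the zinc sensor, was expressed in every library. It lies at chr4:124802549-124849800 on the plus strand and stood at 37.1 and 27.9 TPM in the Chd8-/- libraries, against 31.1 and 29.0 TPM in the WT libraries, with 1123 to 1910 reads. The genotypes overlapped and the values of Chd8-/- replicate 2 and WT replicate 2 had overlapping counting intervals. The mean log2 difference was 0.10. The models of Mtf1 and of the antisense gene 1110065P20Rik share exon bases, and that gene was at 12.9 and 11.6 TPM in Chd8-/- and 3.9 and 5.3 TPM in WT. Reads of these genes can be told apart only where the counting used strand, which is not given in the sources used here.

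Slc30a1, the exporter gene that MTF1 activates, was higher in both Chd8-/- libraries than in both WT libraries by a small margin. It lies at chr1:191906697-191913248 on the plus strand and stood at 20 and 26.5 TPM in the Chd8-/- libraries, against 15.8 and 18.9 TPM in the WT libraries, with 414 to 750 reads. The lowest Chd8-/- value was close to the highest WT value, and their counting intervals (18.6 to 21.5 TPM and 17.3 to 20.6 TPM) overlapped. The log2 mean was 4.59 ± 0.28 (SD, n = 2) in Chd8-/- and 4.19 ± 0.17 (SD, n = 2) in WT, a difference of 0.39. Chd8-/- replicate 1 lay 0.20 and Chd8-/- replicate 2 lay 0.59 above the WT mean. The Chd8-/- libraries were thus ordered as for Mt2, with a much smaller difference, and the WT libraries were in the reverse order. Slc30a1 shares exon bases with the antisense gene 1700034H15Rik, which was at 0.3 to 1.4 TPM.

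Among the importers, Slc39a2 was the member with the largest lower value. It stood at 0.8 TPM in Chd8-/- replicate 1, 0 in Chd8-/- replicate 2, 3.1 TPM in WT replicate 1 and 3.3 TPM in WT replicate 2, or about 18, 0, 49 and 56 reads. The genotypes did not overlap. The log2 mean was 0.42 ± 0.60 (SD, n = 2) in Chd8-/- and 2.07 ± 0.05 (SD, n = 2) in WT, a difference of -1.65 that came to -3.46 with a pseudocount of 0.1 TPM and to -0.61 with 5 TPM. In Chd8-/- replicate 2, 3 reads would be 0.175 TPM. Slc39a2 lies on chromosome 14 at chr14:51893082-51896745, 301405 bp from Chd8 itself. Of the 6 tested genes between them, 3 were higher and 3 lower in Chd8-/-, with a median log2 difference of 0.02. The genotypes did not overlap for 2 upward and 3 downward, beside 14.8% and 27.8% of all genes. Of these 6, 1 was lower by a log2 difference of 1 or more, beside 11.6% of all genes. Nothing is read from counts over 6 genes.

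Slc39a1 and Slc39a10, which encode the plasma membrane importers ZIP1 and ZIP10, had overlapping genotypes. Slc39a1 (chr3:90248190-90253613, plus strand) stood at 33.8 and 24.4 TPM in Chd8-/-, against 19.4 and 38.2 TPM in WT, so the WT libraries held both the lowest and the highest value. Slc39a10 (chr1:46807544-46925776, minus strand), which MTF1 is known to repress, stood at 7.6 and 12.8 TPM in Chd8-/-, against 6.9 and 10.0 TPM in WT. The mean log2 differences were 0.07 and 0.22, and each changed sign when 1 library was left out (Slc39a1 without Chd8-/- replicate 1, -0.15, or WT replicate 1, -0.40; Slc39a10 without Chd8-/- replicate 2, -0.12, or WT replicate 1, -0.01). The difference of Mtf1 changed sign likewise, to -0.10 without Chd8-/- replicate 1.

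**Figure D2:**
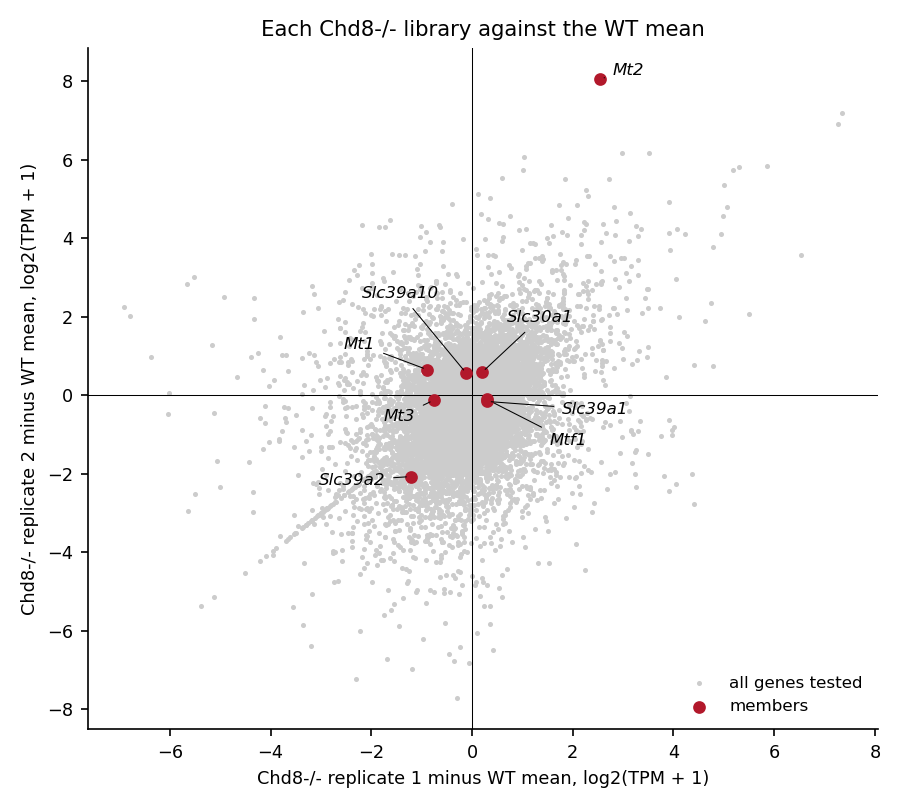
The x axis is Chd8-/- replicate 1 and the y axis Chd8-/- replicate 2, each as the difference from the WT mean in log2(TPM + 1); grey points are the 15240 genes tested and red points are the members. Mt2 lies at 2.54 and 8.06, Slc39a2 at -1.22 and -2.07, and the other 6 members lie within 0.89 of 0 on both axes. The axes share the WT mean, which by itself places points along the diagonal.

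Across the 8 members, the median log2 difference was 0.08, against -0.15 over all 15240 genes. With Chd8-/- replicate 1 alone the medians were 0.04 and -0.04, and with Chd8-/- replicate 2 alone they were 0.23 and -0.25. For 2 members, each Chd8-/- library was above each WT library (Mt2 and Slc30a1), as for 14.8% of all genes, and for 2 members below (Mt3 and Slc39a2), as for 27.8% of all genes. Quantile normalization brought these genes from 2261 above and 4233 below to 3216 and 3259. A mean log2 difference of 1 or more was seen for Mt2 upward and Slc39a2 downward, where 5.12% and 11.6% of all genes had one (781 and 1768 genes, or 1146 and 1231 after quantile normalization). In Chd8-/- replicate 1 alone, these 2 genes were again the members past a difference of 1, beside 6.49% of all genes higher and 9.49% lower. In Chd8-/- replicate 2 alone they were so too, beside 9.0% higher and 20.4% lower. These contrasts are those from which the members were picked, so nothing is read from the counts.

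Across all 15240 genes, limma with Benjamini-Hochberg adjustment called 0 genes (0%) at an adjusted p of 0.05. The lowest adjusted p was 0.0807, and 595 genes were higher and 960 lower at an unadjusted p under 0.05. Quantile normalization moved the median of all genes from -0.15 to 0.00, and among the members it turned the sign of Mt1 alone (from -0.12 to 0.19).

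The zinc transporter genes that were not picked were then examined, 11 of the ZIP family and 9 of the ZnT family. Of these 20 genes, 15 passed the filter and 0 were called by limma (0% of all genes were called), with a lowest adjusted p of 0.433. At an unadjusted p under 0.05, 1 was higher (Slc30a2) and 1 lower (Slc30a7). The genotypes did not overlap for 4 of the 15 genes upward and 4 downward, beside 14.8% and 27.8% of all genes. Slc39a12, Slc30a3 and Slc30a8 were listed at 0 in all 4 libraries.

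Of the 6 ZnT genes tested outside the members, 5 had a lower mean in Chd8-/- and 1 a higher mean, and the member Slc30a1 had a higher mean as well. Over all genes, 61.5% had a lower mean. The median log2 difference of the 6 genes was -0.80 (-0.35 with Chd8-/- replicate 1 alone and -1.32 with Chd8-/- replicate 2 alone), against -0.15 over all genes (-0.04 and -0.25). The 5 to 1 split held under each pseudocount, under quantile normalization and without each library in turn. Slc30a7, which encodes a carrier of zinc into the Golgi, stood at 21.4 and 19.2 TPM in Chd8-/-, against 36.8 and 31.4 TPM in WT (limma, unadjusted p = 0.0424, adjusted p = 0.479). Slc30a4, the endosomal carrier, stood at 2.6 and 0.3 TPM against 5.2 and 4.7 TPM. Slc30a5 and Slc30a6, whose products form a complex of the early secretory pathway, were both lowest in Chd8-/- replicate 2. Slc30a5 was at 13.2 and 7.0 TPM in Chd8-/- against 19.3 and 13.0 TPM in WT, and Slc30a6 at 10.3 and 3.1 TPM against 11.9 and 17.6 TPM. Slc30a9, a mitochondrial zinc carrier, was at 27.4 and 10.0 TPM against 29.9 and 33.5 TPM. For Slc30a6 and Slc30a9, the counting intervals of Chd8-/- replicate 1 and WT replicate 1 overlapped.

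Slc30a2, which encodes a vesicular exporter, was the ZnT gene outside the members with a higher mean. It stood at 2.2 and 5.0 TPM in Chd8-/-, against 0.1 and 0.2 TPM in WT, or about 52, 92, 2 and 4 reads. Its genotypes did not overlap. It reached the filter through the Chd8-/- libraries alone, so it had to be higher there in order to be tested. Slc30a10, a manganese exporter, did not pass the filter. It was listed at 0 in Chd8-/- replicate 1, at 3.9 TPM in Chd8-/- replicate 2 (about 120 reads) and at 0.1 TPM in each WT library, so 1 library holds nearly all of its reads, as for Mt2.

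The ZIP genes outside the members split evenly. Of 9 tested, 4 had a higher and 5 a lower mean, with a median of -0.05, and the split became 7 to 2 under quantile normalization and without Chd8-/- replicate 2. Slc39a6, the highest of them, stood at 82.4 and 44.0 TPM in Chd8-/-, against 33.8 and 43.0 TPM in WT. Slc39a7, which releases zinc from the endoplasmic reticulum, was level at 36.9, 41.7, 34 and 34.8 TPM in Chd8-/- replicates 1 and 2 and WT replicates 1 and 2. Slc39a8, an importer of activated T cells, was at 3.4 and 3.9 TPM against 1.9 and 1.0 TPM, and these 3 genes are those with both Chd8-/- libraries above WT. For Slc39a6 and Slc39a7, the counting intervals of a Chd8-/- and a WT library overlapped. Slc39a4, best known from the gut, had both extremes in Chd8-/-, at 15.6 and 0.6 TPM against 4.9 and 9.7 TPM. The other ZIP genes above 0 (Slc39a3, Slc39a5, Slc39a9, Slc39a11, Slc39a13 and Slc39a14) overlapped between the genotypes, with the highest at 7.4 to 12.7 TPM for Slc39a9, which encodes a Golgi transporter.

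**Figure D3:**
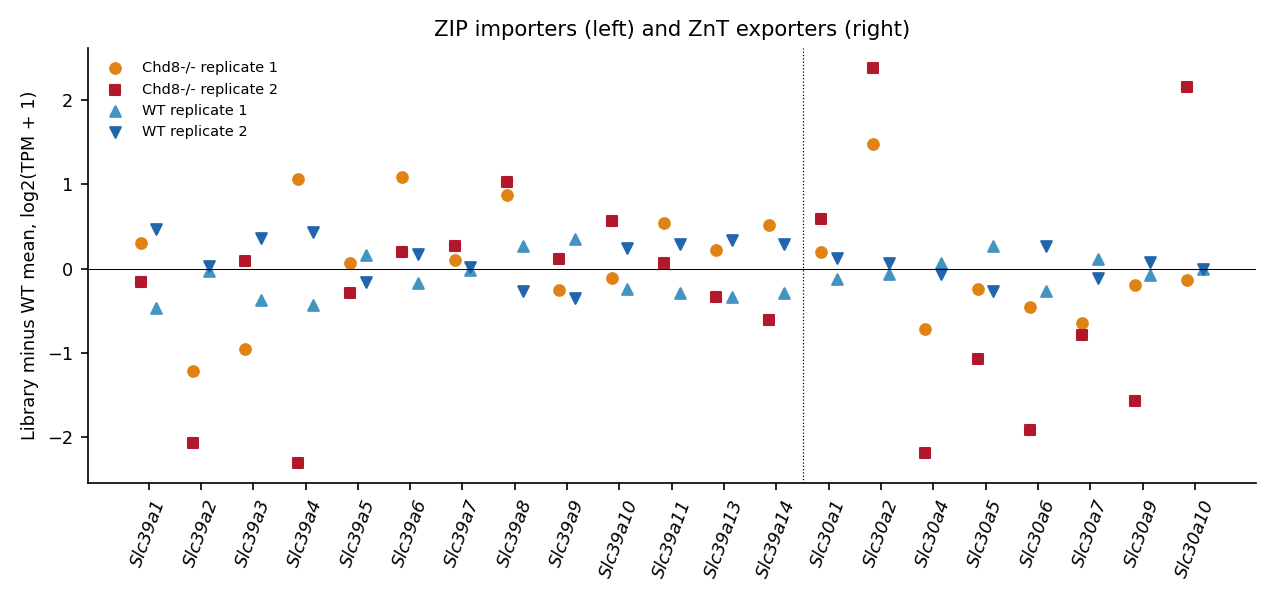
The y axis is each library minus the WT mean in log2(TPM + 1), for every ZIP (left of the dotted line) and ZnT (right) gene above 0 in any library; orange and red points are the Chd8-/- libraries and blue triangles the WT libraries. Slc30a4, Slc30a6, Slc30a7 and Slc30a9 lie below both WT libraries in both Chd8-/- libraries, and Slc30a2 lies above them. Counting intervals, which are not drawn, overlap between Chd8-/- replicate 1 and WT replicate 1 for Slc30a6 and Slc30a9.

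The genes with the profile most like that of Mt2 over the 4 libraries were searched for by Euclidean distance of the centred log2(TPM + 1) values. The closest was Car1, at a distance of 1.81, which encodes a carbonic anhydrase of red cells. It stood at 2.8 TPM in Chd8-/- replicate 1, 124.1 TPM in Chd8-/- replicate 2, 1.5 TPM in WT replicate 1 and 0.4 TPM in WT replicate 2. Mir6998 (1.83), Gm30293 (2.10), AU021063 (2.41) and Mir6970 (2.44) followed. Mir6998 and Mir6970 are listed with exons of 64 and 67 nt, so few reads give a large TPM. For Mt1 the closest was Tbcc, a tubulin folding cofactor gene, at a distance of 0.11, with 10.7 and 31.2 TPM in Chd8-/- and 37.9 and 11.7 TPM in WT. LOC105245236 (0.18), Padi3 (0.22), Sec14l2 (0.23) and Gm30076 (0.25) followed. Each search is over 4 libraries and all genes tested, and a close profile says nothing of function.

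The erythroid and myeloid markers moved with Mt2 in Chd8-/- replicate 2, and their part in the value of Mt2 was not tested. Of 6 erythroid genes, 5 were highest in that library, with the globin gene Hba-a1 at 552.6 TPM against 0.5, 68.1 and 67.3 TPM. Of 8 myeloid genes, 6 were highest in it, with Lyz2 at 1360.3 TPM against 20, 77.1 and 60.5 TPM. Without Lyz2 the myeloid sum was 126.9 TPM against 13.2, 74.1 and 61.2 TPM. The B cell sum was 139.6 TPM against 35.5, 43.8 and 29.7 TPM, and 3 of 5 B cell genes were highest in Chd8-/- replicate 2. The CD8 T and NK sum was 66.3 TPM against 93.4, 87.4 and 56.8 TPM. In Chd8-/- replicate 1, where Mt2 was at 5.9 TPM, both the erythroid and the myeloid sum were the lowest of the 4 libraries, and 3 of 6 erythroid genes (Hba-a2, Hbb-bs and Hbb-bt) and 3 of 8 myeloid genes were at 0. The WT libraries held erythroid sums of 351.9 and 385.2 TPM with 0 and 0.4 TPM of Mt2. In bulk samples, more cells of a type and more RNA per cell cannot be told apart.

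**Figure D4:**
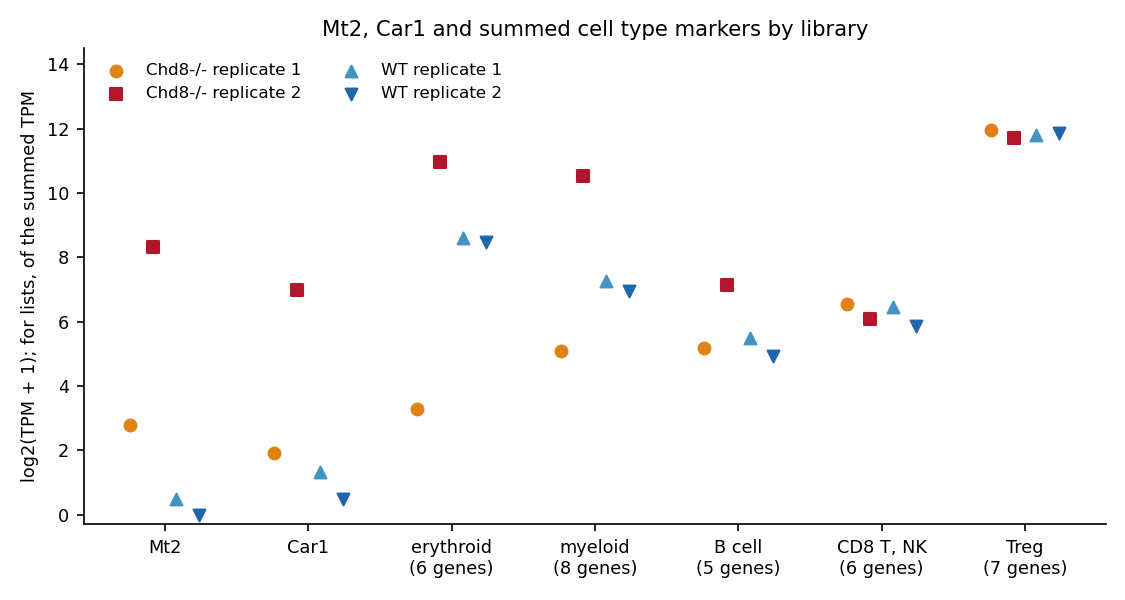
The y axis is log2(TPM + 1), for Mt2 and Car1 singly and for the summed TPM of each marker list; each point is 1 library. Chd8-/- replicate 2 is highest for Mt2, for Car1 and for the erythroid, myeloid and B cell sums, though not for every gene of these lists. Car1 was picked as the profile closest to Mt2 over these libraries, so its likeness to Mt2 follows from that choice. Chd8-/- replicate 1 is above both WT libraries for Mt2 and Car1 and below them for the erythroid and myeloid sums.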

How the data were processed

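RNA was measured in 2 WT and 2 Chd8-/- libraries of sorted Tregs. The authors trimmed reads (Trim Galore 0.4.2, cutadapt 1.9.1), aligned them to mm10 with STAR 2.6.1e, removed duplicates with sambamba, counted RefSeq genes with featureCounts 1.6.2 and deposited TPM rounded to 0.1. The methods name a droplet single-cell assay beside an Illumina RNA-Seq kit, and the table holds 1 bulk column per library. Removing duplicates lowers short, abundant genes most. Of 35869 names, 4 repeated entries were left out. Genes that reached 1 TPM in at least 2 libraries were compared as log2(TPM + 1) by the two-sided moderated test of limma 3.58.1 under R 4.3.3, with a mean-variance trend, no covariate and p-values adjusted by Benjamini-Hochberg (threshold 0.05).

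Reads were estimated after the data were seen. TPM times the union exon length of RefSeq genes in GRCm38.p6 falls on multiples of a step, which was 0.148 to 0.205 TPM kb per read. For genes of 150 to 300 nt, 75.9% to 86.7% of values lay within 0.25 of a whole read. Genes with a length held 80.2% to 86.1% of TPM. Intervals are exact Poisson (95%), and upper limits use 3 reads.

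The limma step was tested on simulated data with known differences. Both genotypes were drawn with the same spread, so a deviating library was not covered by that test. Named genes were every member, every ZIP, ZnT and metallothionein gene, up to 4 genes with the highest TPM of each other list plus any past the test, the 5 nearest profiles of Mt1 and Mt2, the 5 highest differences in each Chd8-/- library, Chd8 and marker lists. The members and lists were chosen with earlier results of these data known. Alternatives were pseudocounts of 0.1 and 5 TPM, no filter, a filter at a mean of 5 TPM, quantile scaling, no trend, a replicate block and leaving out each library. The deposited ATAC-seq and CHIP-seq peaks are on mm39, and peaks at the members are not analysed here because an annotation of that build was not used. Python 3.11.15, numpy 2.4.6, pandas 2.3.3, scipy 1.17.1 and matplotlib 3.10.9 were used.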

Additional observations from a re-analysis of the deposited data

How the results depend on the processing

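The limits are 2 libraries per genotype, few reads for Mt1, Mt2 and Mt3, and Chd8-/- libraries that differ from each other and from WT by transcripts of other cells. Over all genes tested, a mean TPM of at least 5 raised the calls from 0 to 2 (Cdkn1a and Mir7649, adjusted p = 0.0347 with limma), and the lowest adjusted p ranged from 0.0347 to 0.971 over the alternatives. Calls among the zinc transporters outside the members were 0 under all 11 alternatives. The numbers of genes with a log2 difference of 1 or more went from 781 higher and 1768 lower to 362 and 690 with a pseudocount of 5 TPM. The lower genes numbered 1149 with a mean TPM of at least 5. Leaving out each library in turn gave 989 to 1371 higher and 1447 to 3107 lower genes, with the upper ends without Chd8-/- replicate 1. Genes without overlap between genotypes went from 2261 higher and 4233 lower to 3359 to 4948 higher and 5794 to 8032 lower, since fewer libraries have to be ordered.

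The log2 difference of Slc39a2 was -1.65, and -3.46 and -0.61 with pseudocounts of 0.1 and 5 TPM. That of Mt2 was 3.51 to 7.60 over the pseudocounts, 8.06 without Chd8-/- replicate 1 and 2.54 without Chd8-/- replicate 2. The labels do not tie same-numbered libraries to a shared litter or day, and the deviations of same-numbered libraries correlated at -0.01. With the replicate block, 0 genes were called, the lowest adjusted p was 0.552 and 1336 genes had an unadjusted p under 0.05. The zinc transporter splits were recomputed under alternatives chosen after seeing the data: the ZIP genes outside the members were 4 higher and 5 lower, and ranged from 4 to 7 higher. The alternatives for ATAC peaks at the members (cutoff, pseudocount, scaling, call rule, window and mice left out) were not run.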

Other observations

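Other stress and metal lists were read in the same libraries, with 0 genes called by limma in each list. Of all genes, 61.5% had a lower mean in Chd8-/-. Both Chd8-/- libraries were above both WT libraries for 14.8% of all genes and below for 27.8%. Copper handling genes split 6 higher and 3 lower among 9 tested. Cox17, a copper chaperone of cytochrome oxidase, was at 140.7 and 164.7 TPM in Chd8-/- and 94.8 and 101.5 TPM in WT (limma, unadjusted p = 0.0262, adjusted p = 0.455). The genotypes overlapped for 7 of these 9 genes, among them Atox1 at 284.9 and 116.1 TPM against 200.7 and 109.1 TPM. Of 7 tested genes known to respond to glucocorticoids, 5 had a higher and 2 a lower mean. The list median was 0.82 with Chd8-/- replicate 1 alone and 0.19 with Chd8-/- replicate 2 alone. A link between this list and the Mt2 values was not tested. Klf9, the gene of this list with an unadjusted p under 0.05 in limma, had a lower mean, at 6.0 and 1.2 TPM in Chd8-/- against 19.9 and 13.3 TPM in WT (unadjusted p = 0.0313, adjusted p = 0.462), and was named after its values were seen. Among the genes with the highest levels, Ddit4 was at 302.1 and 151.9 TPM against 133.6 and 101.1 TPM, and Fkbp5 at 82.0 and 59.8 TPM against 55.2 and 38.1 TPM. Dusp1 was at 173.7 and 92 TPM against 77.9 and 83.6 TPM. Tsc22d3 overlapped between the genotypes, at 19.2 and 5.9 TPM against 8.2 and 11.7 TPM.

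Of 7 tested NRF2 targets, 2 had a higher and 5 a lower mean. Hmox1, the heme-degrading enzyme gene, was at 9.4 TPM in Chd8-/- replicate 1, 126.7 TPM in Chd8-/- replicate 2, 191.3 TPM in WT replicate 1 and 189.4 TPM in WT replicate 2. Nqo1, a quinone reductase gene named after its values were seen, was at 3.7 and 7.6 TPM in Chd8-/-, against 0 and 0.5 TPM in WT, and reached the filter through the Chd8-/- libraries alone. Osgin1, named likewise, was at 3.0 and 0.4 TPM against 10.5 and 8.5 TPM (limma, unadjusted p = 0.0252, adjusted p = 0.453). Of 6 heat shock genes, 3 were tested, and each of these 3 had both Chd8-/- libraries above both WT libraries. Their median log2 difference was 0.65, and Hspa8 was at 2086.1 and 2174.9 TPM against 1554.5 and 1715.6 TPM. Hspa1a, Hspa1b and Hspb1 did not pass the filter, stood at 0 to 0.7 TPM and overlapped between the genotypes. The 4 STAT3-linked genes had higher means, with Socs3, a feedback inhibitor of cytokine signals, at 63.7 and 94.8 TPM against 44.5 and 45.1 TPM. Stat3 itself overlapped between the genotypes, at 52.7 and 45.6 TPM against 44.5 and 48.7 TPM. The 6 tested hypoxia genes split 4 higher and 2 lower, with Slc2a1 at 37.1 and 40.0 TPM against 34.3 and 30.4 TPM.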
